A study of Mus musculus with 12 samples.

Results

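The enzymes that place and remove acetyl and methyl groups on histones were followed across the 4 groups of a white adipocyte culture experiment. Members were taken by gene symbol: every gene of the count table whose symbol starts with Kat, Hdac, Sirt, Kmt, Setd or Kdm followed by a digit, whatever its level. The rule found 57 of the 20295 genes, namely 7 Kat, 11 Hdac, 7 Sirt, 5 Kmt, 9 Setd and 18 Kdm genes. All 57 were among the 13543 genes with enough counts to be tested. The rule follows names, not activity, so it takes in enzymes that also act on other proteins and leaves out Ep300, Ezh2 and others, which are counted below as separate lists.

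The cells were mature adipocytes floated out of collagenase-digested epididymal fat of lean male C57/BL6J mice and embedded in a hydrogel at 50000 cells per well. After 2 days they received the vehicle (DMSO), the β-adrenergic agonist isoproterenol (ISO) for 3 h, inhibitors of 2 lipases, ATGL and HSL (Lip), or the inhibitors followed by ISO for 3 h (Lip+ISO). The sample titles and the text of the study name ISO and were followed here. The figure legend for these white adipocytes names ISO too, but its treatment sentence names another compound, the ABHD5 ligand SR-3420. The identity of the stimulus thus rests on the titles, that text and the rest of the legend. The comparison asks which part of the ISO response needs the breakdown of stored fat. RNA sequencing gave 3 libraries per group, 12 in all, and every group shares the strain, sex, digestion and gel culture. The study describes its replicates as independent experiments, whereas the mouse or mice behind each library and their age are not given in the sources used here.

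Histone acetyltransferases transfer an acetyl group from acetyl-CoA to lysines and in general open chromatin, and the zinc-dependent HDACs and NAD-dependent sirtuins take it off. Lysine methyltransferases use S-adenosylmethionine, and the JmjC demethylases need iron and 2-oxoglutarate, so the activity of both draws on metabolism. In adipocytes class IIa HDACs are known targets of cAMP signaling, HDAC3 acts within corepressor complexes, and SIRT1 is a known brake on fat storage.

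Libraries held 22632220 to 43707557 counts, and each expression value below is CPM, counts per 1000000 counts of the library, corrected by TMM, which allows for library composition. Adipocyte markers (10 of 10 genes tested, among them Adipoq and Plin1) summed to 24100 to 38600 CPM in every library, so the label fits the RNA. Markers of other cells were present too, and their sums were higher in ISO than in DMSO without overlap. Macrophage markers (9 of 11 tested) summed to between 53.3 and 66.8 CPM in DMSO, 100 and 151 in ISO, 56.0 and 61.6 in Lip, and 65.2 and 113 in Lip+ISO, and 5 of the 9 passed the test as higher in ISO than in DMSO. The 10 endothelial markers summed to between 133 and 252 CPM in DMSO, 302 and 545 in ISO, 67.4 and 218 in Lip, and 102 and 299 in Lip+ISO, with 1 passing as higher in ISO. The 10 fibroblast and progenitor markers summed to between 455 and 799 CPM in DMSO, 901 and 1200 in ISO, 607 and 642 in Lip, and 561 and 759 in Lip+ISO, with 4 passing as higher in ISO. The 7 tested mesothelial markers summed to between 25.7 and 59.5 CPM in DMSO, 69.0 and 80.4 in ISO, 15.3 and 62.4 in Lip, and 43.2 and 56.1 in Lip+ISO, with 1 passing as higher in ISO. With the replicate number as a block, 9 endothelial, 7 macrophage, 8 fibroblast and progenitor and 3 mesothelial markers passed as higher in ISO, and 0 as lower. The share of all tested genes called with that block was not counted. Of the adipocyte markers 3 of 10 were lower in ISO than in DMSO and 0 higher by edgeR. DESeq2, an unadjusted p under 0.05 and the block gave the same adipocyte counts. Of all tested genes 12.3% passed edgeR's test as higher in ISO than in DMSO and 13.9% as lower. Lymphocyte markers stayed at or under 1.39 CPM in every library, with 1 of 8 tested, and Cd8a had no count in any ISO library. In such bulk RNA fewer cells of a type and less RNA per cell cannot be told apart, and the part of these other cells in the results below was not tested.

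In unstimulated cells the enzymes spanned a wide range. Levels between genes are given as CPM per kb of counted length, as the mean ± SD of the 3 DMSO libraries. Setd8, which monomethylates histone H4, stood highest at 60.0 ± 0.757, followed by the cytosolic tubulin deacetylase Sirt2 at 42.3 ± 0.971. Hdac5 (27.8 ± 1.73), the actin histidine methyltransferase Setd3 (26.9 ± 0.825), Hdac2 (25.2 ± 2.36) and Hdac3 (24.4 ± 1.18) came next, and these neighbors did not differ beyond their spread. Kdm4a (22.4 ± 0.921), an H3K9 and H3K36 demethylase, led the demethylases, and Kat2b (21.7 ± 0.95), the acetyltransferase also called PCAF, led the acetyltransferases. At the other end lay Hdac9 at 0.232 ± 0.044 and Kdm4d at 0.0877 ± 0.0491, the latter with only 1 to 13 counts per library. The plot of vehicle levels gives all 57 genes by family.

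**Figure D1:**
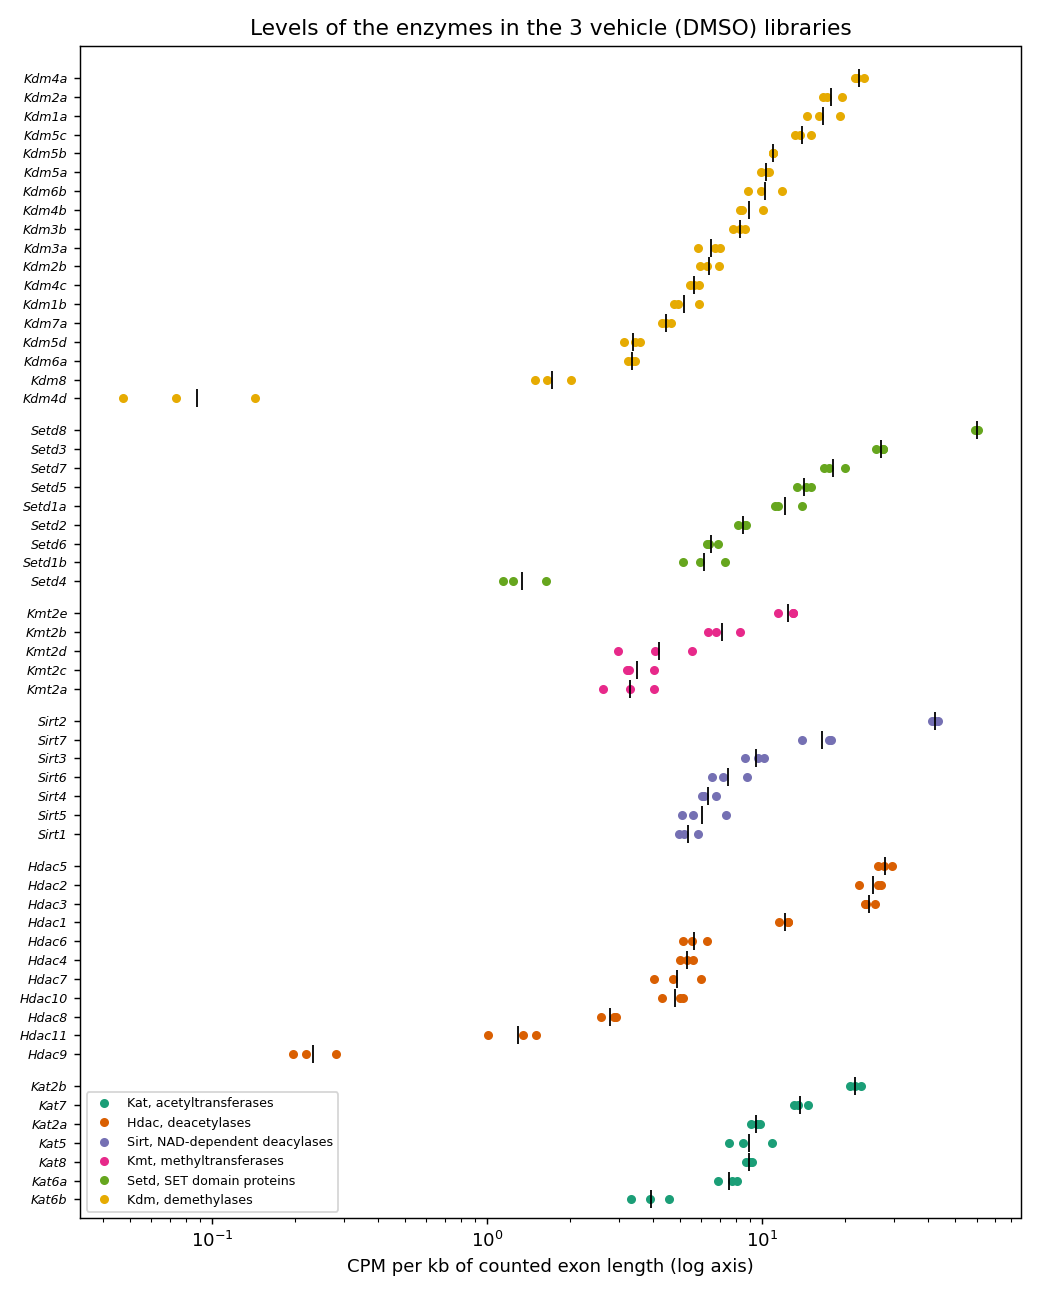
Levels of the 57 enzymes in the 3 DMSO libraries (points) with their mean (bar), as CPM per kb of counted length on a log axis, by family. Setd8 and Sirt2 lie at the top with means of 60.0 and 42.3, and Hdac9 and Kdm4d at the bottom with 0.232 and 0.0877.

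With lipases active, ISO lowered more of these enzymes than it raised. By edgeR's quasi-likelihood test at an adjusted p of at most 0.05, 3 of 57 were higher in ISO than in DMSO, against 12.3% of all tested genes, and 13 were lower, against 13.9%. The median log2 fold change of the 57 was -0.23, and that of all tested genes 0.00. Of the 57, 43 had a negative log2 fold change. In 23 members all ISO libraries lay below all DMSO libraries (22.6% of all tested genes did), and in 3 members, Hdac1, Kdm7a and Sirt1, they lay above (20.7%). Hdac1 is named after its values were seen. With the replicate number as a block, 4 were called higher and 19 lower. The share of all tested genes called with the block was not counted, so these counts cannot be set against 12.3% and 13.9%. Most changes were small. Asking also for a log2 change of 1 or more left 1 member lower (1.8% of all tested genes) and 0 higher (5.68%).

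Setd1b (chr5:123592202-123618639 in mm9, plus strand), a catalytic subunit of a COMPASS complex that methylates H3K4 at promoters, fell most. It measured 45.6, 52.4 and 64.9 CPM in the 3 DMSO libraries and 18.1, 21.8 and 26.9 CPM in the 3 ISO libraries. Every ISO library was below every DMSO library, and the log2 fold change was -1.29 ± 0.18 (SE; edgeR adjusted p = 0.0002). Its sister subunit Setd1a (67.7, 66.1 and 82.3 CPM in DMSO, 44.0, 49.5 and 61.2 CPM in ISO) fell by 0.48 ± 0.16 on the log2 scale (edgeR adjusted p = 0.0446). Its groups did not overlap either.

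The 5 Kmt genes, the MLL family, had negative log2 fold changes throughout, from -0.59 to -0.27, and Kmt2e passed the test. With the replicate number as a block all 5 passed as lower, with no share of all tested genes counted. Kmt2e encodes MLL5, whose own methyltransferase activity is in doubt. Its level was 82.2, 72.6 and 82.2 CPM in DMSO and 48.5, 53.5 and 55.3 CPM in ISO, with no overlap and a log2 fold change of -0.59 ± 0.08 (edgeR adjusted p = 0.00025). Kmt2d, which marks enhancers and is needed for adipogenesis, varied far more between libraries of a group, with 59.2, 80.6 and 110 CPM in DMSO and 44.4, 49.0 and 83.7 CPM in ISO. In each of the 4 groups its highest library was number 3, and its log2 fold change was -0.49 ± 0.30 (edgeR adjusted p = 0.237). With the replicate block it was -0.51 (edgeR adjusted p = 0.00341). The blocked log2 fold changes of Kmt2b, Kmt2c and Kmt2a, named after their values were seen, were -0.50, -0.31 and -0.29 (edgeR adjusted p = 0.00318, 0.00561 and 0.0174). Reads of Kmt2e could be shared with Srpk2, which overlaps it on the other strand, since the counting is not stated to use strand. Setd7, which methylates H3K4 in the test tube and many other proteins, fell by 0.45 ± 0.12 on the log2 scale (edgeR adjusted p = 0.0184).

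Among the 7 acetyltransferases 2 fell and 0 rose by edgeR, against 13.9% and 12.3% of all tested genes. At an unadjusted p under 0.05 and by DESeq2, 0 were higher too. Kat6b, the MORF subunit that acetylates H3K23, measured 28.0, 24.0 and 32.8 CPM in DMSO and 17.4, 14.1 and 18.9 CPM in ISO. The groups did not overlap, and the log2 fold change was -0.76 ± 0.16 (edgeR adjusted p = 0.00403). Kat2b, which acetylates H3K9 within SAGA-type complexes, went from 106, 96.8 and 101 CPM to 81.3, 72.7 and 74.3 CPM, a log2 fold change of -0.41 ± 0.07 (edgeR adjusted p = 0.00079). Its paralog Kat2a did not pass (log2 fold change -0.17 ± 0.11, edgeR adjusted p = 0.287).

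The demethylases moved both ways, with 2 of 18 higher and 6 lower, against 12.3% and 13.9% of all tested genes. Kdm7a, which removes methyl groups from H3K9 and H3K27, measured 39.9, 41.2 and 43.0 CPM in DMSO and 53.2, 51.2 and 71.6 CPM in ISO. All ISO libraries were above all DMSO libraries, and it rose by 0.50 ± 0.12 on the log2 scale (edgeR adjusted p = 0.00783). Kdm6b, the H3K27 demethylase JMJD3, went from 59.1, 65.7 and 78.5 CPM to 89.5, 78.2 and 107 CPM. Here the lowest ISO library was just under the highest DMSO library, and the log2 fold change was 0.43 ± 0.13 (edgeR adjusted p = 0.0267). The 6 that fell were Kdm3b (-0.50), Kdm1b (-0.46), Kdm5b (-0.42), Kdm4a (-0.41), Kdm5a (-0.40) and Kdm2b (-0.37), given as log2 fold changes. They act on H3K9, H3K4 and H3K36, and Kdm1b overlaps Dek on the other strand. Kdm1a (LSD1) had a log2 fold change of -0.09 ± 0.11 and Kdm3a, linked to β-adrenergic and fat oxidation genes in mice, one of 0.08 ± 0.14, with edgeR adjusted p of 0.608 and 0.727.

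Of the 11 HDACs 1 rose and 1 fell, against 12.3% and 13.9% of all tested genes. Hdac7 measured 19.9, 25 and 17.0 CPM in DMSO and 22.5, 37.2 and 33.7 CPM in ISO, so the groups overlapped. Its log2 fold change was 0.60 ± 0.19 (edgeR adjusted p = 0.035), and the gene overlaps Slc48a1 on the other strand. Hdac7 is also known as an endothelial HDAC, and the endothelial marker sum was higher in ISO too, as given above. Hdac5, a class IIa HDAC, fell from 109, 96.6 and 102 CPM to 85.7, 85.7 and 75.5 CPM, a log2 fold change of -0.32 ± 0.08 (edgeR adjusted p = 0.00987). Hdac3 (-0.14 ± 0.09), Hdac4 (0.14 ± 0.15) and Hdac9 (-0.41 ± 0.38) did not pass, with edgeR adjusted p of 0.283, 0.521 and 0.458 for their log2 fold changes. Of the 7 sirtuins 0 passed in either direction by edgeR and by DESeq2. An unadjusted p under 0.05 (38.9% of all tested genes) was found for 1, Sirt1. Its log2 fold change was 0.22 ± 0.09 (edgeR adjusted p = 0.0738, and 0.0408 with the replicate block).

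Some of these calls were lost when libraries were left out, in part libraries of groups outside the comparison. Each call was refitted 15 times, 12 times without 1 library and 3 times without 1 replicate number in every group. Setd1b, Kat6b, Kmt2e, Kdm3b, Kat2b and Kdm7a passed in all 15 fits. Setd1a missed the threshold in 8 fits (among them those without DMSO 1 or 3, ISO 1 or 2, and Lip 1 or 2, adjusted p up to 0.168) and Hdac7 in 6 (without DMSO 1 or 3 and ISO 2 or 3, up to 0.328). Kdm6b missed it in 5 fits (without DMSO 1 or 2 and ISO 3, up to 0.169). Kdm1b and Setd7 missed it in 5 each (without DMSO 1 and ISO 2 or 3, up to 0.157 and 0.149), Kdm2b in 5 (without DMSO 3 and ISO 1, up to 0.0996) and Hdac5 in 4 (without DMSO 1, up to 0.0835). Kdm4a, Kdm5a and Kdm5b missed it only without replicate 2 of every group.

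The plot of changes shows the 3 comparisons side by side. They share libraries, so their values are set beside each other and not tested against one another.

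**Figure D2:**
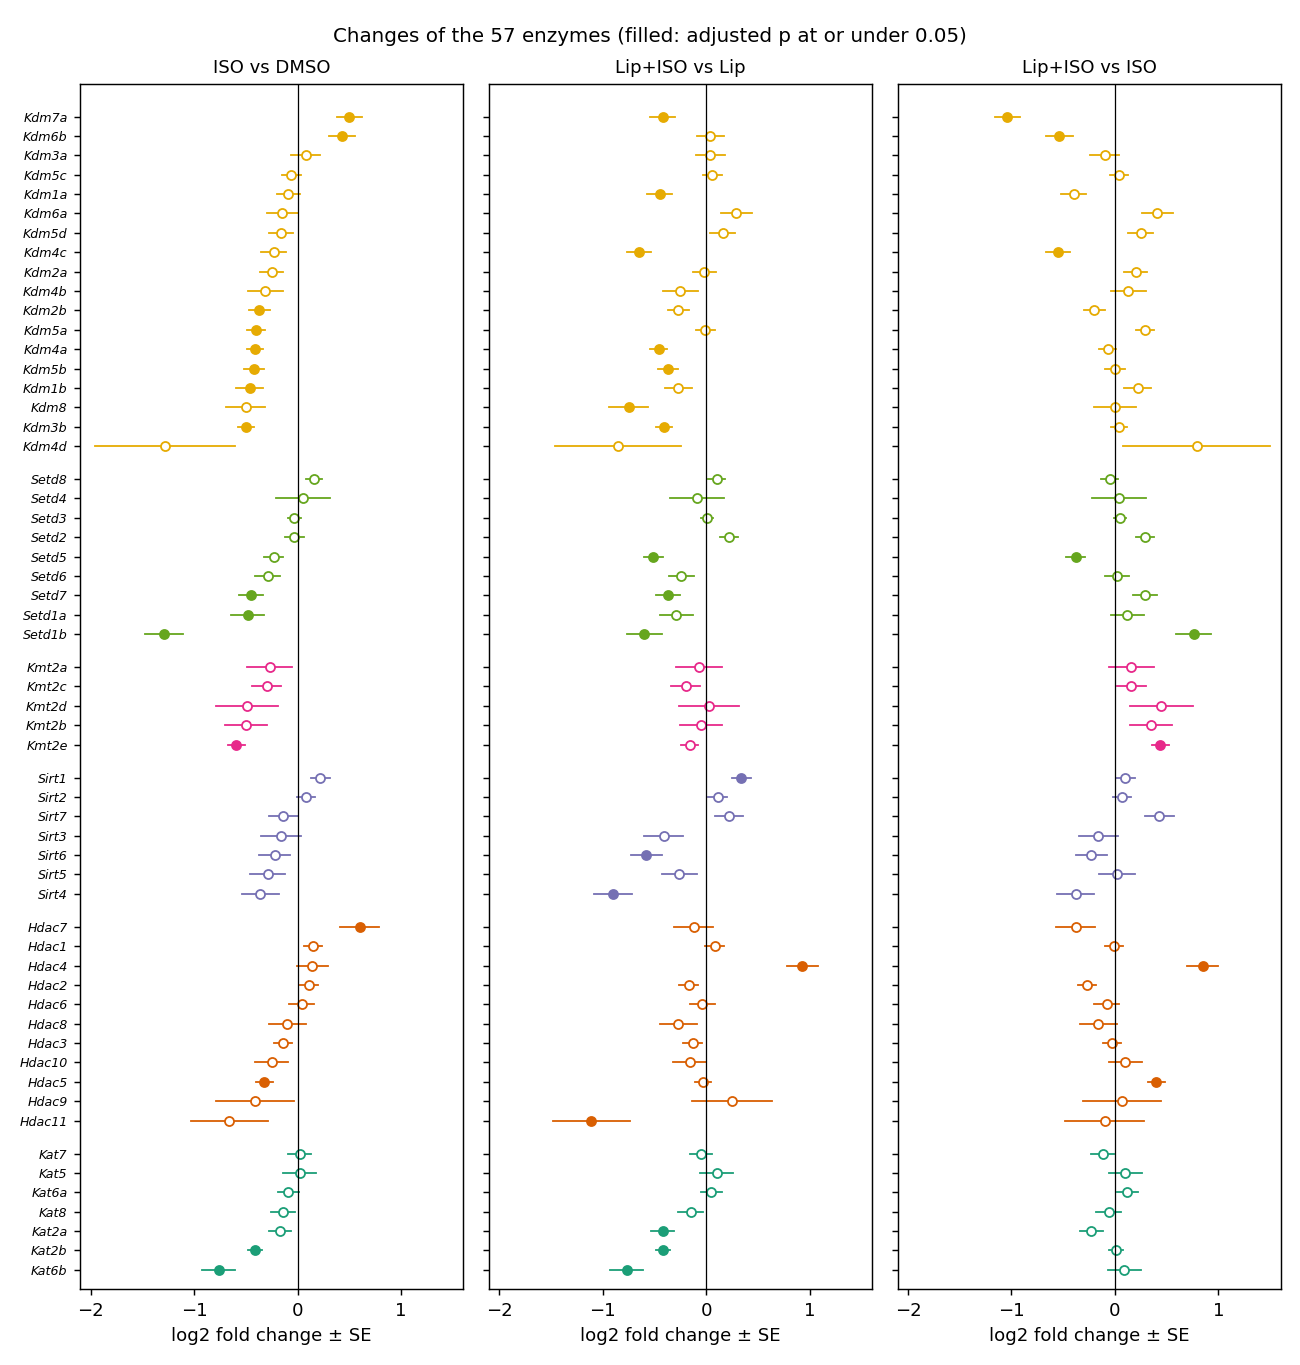
Log2 fold change ± SE of each of the 57 enzymes in ISO against DMSO, Lip+ISO against Lip and Lip+ISO against ISO, by family and in the order of the first panel, with filled points for an adjusted p of at most 0.05. Setd1b lies farthest left among filled points in the first panel at -1.29, Hdac4 farthest right in the second at 0.93, and Kdm7a farthest left in the third at -1.04.

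With the lipases inhibited, ISO again lowered more members than it raised. Only Kdm7a passed edgeR's test that its 2 responses to ISO differ. With the replicate number as a block 3 members passed as higher and 2 as lower, with no share of all tested genes counted. Against Lip, 2 of 57 were higher in Lip+ISO (11.5% of all tested genes) and 16 were lower (15.8%), by edgeR at an adjusted p of at most 0.05. The median log2 fold change was -0.16, and 0.00 over all tested genes. All Lip+ISO libraries lay below all Lip libraries in 22 members (22% of all tested genes) and above them in 3 (17.2%), Hdac4, Sirt1 and Setd2, of which Setd2 was named after its values were seen. With a log2 change of 1 or more required as well, 1 was lower (3.16% of all tested genes) and 0 were higher (4.19%).

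Hdac4 (chr1:93829332-94044970 in mm9, minus strand), a class IIa deacetylase whose shuttling out of the nucleus is controlled by phosphorylation, rose most. It measured 21.4, 18.9 and 24.8 CPM in Lip and 35.5, 38.6 and 50.4 CPM in Lip+ISO, against 19.8, 20.9 and 22.0 CPM in DMSO and 26.2, 20.2 and 22.7 CPM in ISO. Only the Lip+ISO libraries stood apart, above the other 9. The log2 fold change was 0.93 ± 0.15 against Lip (edgeR adjusted p = 0.00035) and 0.85 ± 0.15 against ISO (edgeR adjusted p = 0.0029). The test of the difference between the 2 ISO responses gave 0.80 ± 0.21 on the log2 scale (edgeR adjusted p = 0.0821), above the threshold, and DESeq2 gave an adjusted p of 0.0116. With the replicate block edgeR gave an adjusted p of 0.0169, so the difference passed there. Sirt1, the nuclear NAD-dependent deacetylase, measured 19.8, 19.8 and 20.6 CPM in Lip and 26.7, 24.5 and 25 CPM in Lip+ISO, without overlap. It rose by 0.34 ± 0.09 on the log2 scale (edgeR adjusted p = 0.00984), a call lost when libraries were scaled by their totals alone (adjusted p = 0.0884).

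Several members that fell were deacylases of low level. Sirt4, a mitochondrial sirtuin, went from 8.90, 10.0 and 13.7 CPM in Lip to 4.89, 6.78 and 5.84 CPM in Lip+ISO, a log2 fold change of -0.90 ± 0.18 (edgeR adjusted p = 0.00264). Sirt6, a nuclear H3K9 and H3K56 deacetylase, went from 11.9, 13.6 and 16.2 CPM to 9.62, 9.86 and 8.50 CPM, a log2 fold change of -0.58 ± 0.15 (edgeR adjusted p = 0.0102). Neither group pair overlapped. Hdac11, a lysine deacylase that removes long fatty acyl groups, went from 5.02, 4.57 and 2.68 CPM to 1.05, 2.19 and 2.42 CPM. Its log2 fold change of -1.11 ± 0.37 (edgeR adjusted p = 0.0434) rests on 26 to 146 counts per library. Sirt3, the main mitochondrial deacetylase, did not pass (-0.41 ± 0.19 on the log2 scale, edgeR adjusted p = 0.124) and overlaps Ric8 on the other strand.

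Of the 7 acetyltransferases 3 fell here by edgeR, against 15.8% of all tested genes, and 4 did not pass. By edgeR 0 were higher, against 11.5% of all tested genes, as by DESeq2 and at an unadjusted p under 0.05. Kat6b measured 29.5, 30.5 and 31.1 CPM in Lip and 13.9, 18.2 and 21.2 CPM in Lip+ISO, a log2 fold change of -0.77 ± 0.16 (edgeR adjusted p = 0.00269). Kat2b and Kat2a both had log2 fold changes of -0.42, with SE of 0.07 and 0.11 and edgeR adjusted p of 0.00043 and 0.0132. For Kat6b and Kat2b the differences between the ISO responses with and without inhibitors were -0.02 ± 0.22 and -0.01 ± 0.10 on the log2 scale (95% confidence intervals -0.50 to 0.47 and -0.22 to 0.20).

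Of the demethylases 7 of 18 fell and 0 rose by edgeR and DESeq2, against 15.8% and 11.5% of all tested genes by edgeR. At an unadjusted p under 0.05, 0 were higher. Kdm4c, an H3K9 and H3K36 demethylase, measured 22.1, 22.1 and 20.9 CPM in Lip and 11.2, 13.5 and 16.8 CPM in Lip+ISO, a log2 fold change of -0.65 ± 0.12 (edgeR adjusted p = 0.00164). Kdm8, a JmjC dioxygenase, fell by 0.75 ± 0.19 on the log2 scale from 4.29, 5.22 and 5.42 CPM to 3.19, 3.15 and 2.54 CPM (edgeR adjusted p = 0.0111). Kdm1a fell by 0.45 ± 0.12 on the log2 scale (edgeR adjusted p = 0.0103). The others were Kdm4a (-0.46), Kdm7a (-0.42), Kdm3b (-0.41) and Kdm5b (-0.37), as log2 fold changes. Of the SET domain genes, Setd1b (-0.60 ± 0.17), Setd5 (-0.51 ± 0.09) and Setd7 (-0.37 ± 0.12) fell, as log2 fold changes with edgeR adjusted p of 0.0201, 0.00128 and 0.0402. Of the 5 Kmt genes 0 passed in either direction by edgeR and by DESeq2. An unadjusted p under 0.05 was reached by 0 (36.7% of all tested genes). Their log2 fold changes ran from -0.20 to 0.03. Hdac5 had a log2 fold change of -0.03 ± 0.08 and Kmt2e one of -0.16 ± 0.08, with edgeR adjusted p of 0.838 and 0.181.

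The same 15 refits of Lip+ISO against Lip kept Hdac4, Kat6b and Setd5 past the threshold throughout. Hdac11 missed it in 10 fits (without any 1 of the DMSO libraries, ISO 2, Lip 1 or 2, or Lip+ISO 1 or 2, adjusted p up to 0.328) and Setd7 in 8 (without DMSO 3, any 1 of the Lip libraries, or Lip+ISO 2 or 3, up to 0.237). Setd1b missed it in 5 fits (without Lip 3 and Lip+ISO 1 or 2, up to 0.125) and Kdm7a in 4 (without Lip 1 and Lip+ISO 2, up to 0.166). Kdm5b and Sirt6 missed it in 3 each (without Lip 3, up to 0.129 and 0.119), as did Kat2a (without Lip+ISO 3, up to 0.126). Sirt1, Kdm1a, Kdm8, Sirt4 and Kdm4c missed it only where a replicate number was left out of every group.

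The inhibitors alone moved none of these genes past the test. Between Lip and DMSO edgeR called 0 members higher (0.00738% of all tested genes) and 0 lower (0.0443%), as did DESeq2. An unadjusted p under 0.05 was found for 1 member, Kdm2b, against 4.3% of all tested genes. A log2 change of 1 or more on top gave 0 either way, against 0% of all tested genes higher and 0.0222% lower. Kdm2b, a demethylase that also recruits Polycomb to CpG islands, was named after its value was seen, and measured 30.7, 32.4 and 35.8 CPM in DMSO and 24.8, 28.1 and 27.3 CPM in Lip. Its log2 fold change was -0.30 ± 0.10 (edgeR adjusted p = 0.774). All Lip libraries lay below all DMSO libraries in 3 members (5.21% of all tested genes), Kdm2b, Kdm4c and Kdm7a, and above in 0 (5.19%). The log2 fold changes of the 57 ran from -0.58 to 0.35, with a median of 0.00.

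Under ISO the inhibitors moved 8 members, 4 up and 4 down, against 4.36% and 4.59% of all tested genes. In 9 members all Lip+ISO libraries lay above all ISO libraries and in 7 below, against 11.9% and 13.5%. A log2 change of 1 or more was reached by 1 lower member (1.2% of all tested genes) and 0 higher ones (0.79%). The 4 higher ones were Hdac4, Setd1b, Kmt2e and Hdac5, and the 4 lower ones Kdm7a, Kdm4c, Kdm6b and Setd5. The marker sums of macrophages, endothelial cells, fibroblasts and mesothelial cells given above had lower medians in Lip+ISO than in ISO. By edgeR 4 of 10 fibroblast, 1 of 10 endothelial, 0 of 9 macrophage and 0 of 7 mesothelial markers passed as lower, and 0 as higher. With the replicate block 6, 8, 1 and 1 passed as lower in that order, and 0 as higher. The part of these cells in the 8 changes was not tested.

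Kdm7a (chr6:39086619-39156772 in mm9, minus strand) had the largest change of the 57 in this comparison. Its levels were 53.2, 51.2 and 71.6 CPM in ISO and 28.1, 26.2 and 31.3 CPM in Lip+ISO, against 39.4, 38.1 and 36.7 CPM in Lip. Lip+ISO lay below the other 3 groups in every library and ISO above them. The log2 fold change between Lip+ISO and ISO was -1.04 ± 0.12 (edgeR adjusted p = 0.00016), and it passed in all 15 refits, with values from -1.13 to -0.87. The response to ISO thus turned from 0.50 ± 0.12 without inhibitors to -0.42 ± 0.12 with them (edgeR adjusted p = 0.0198), on the log2 scale. The difference of the responses was -0.92 ± 0.17 (edgeR adjusted p = 0.0152). It was the 1 member called lower in that test (0.724% of all tested genes), and 0 were called higher (0.901%). An unadjusted p under 0.05 was reached by 10 members, 5 in each direction, against 13.8% of all tested genes. DESeq2 called 2 higher and 1 lower. With the replicate block edgeR called 3 higher and 2 lower. Shares of all tested genes were not counted with the block or by DESeq2. A difference of at least 1 in log2 units was reached by 0 members in either direction (0.406% of all tested genes higher and 0.34% lower). The call was lost without replicate 1 or replicate 2 of every group, with adjusted p up to 0.191.

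Kdm6b was also highest in ISO, with 89.5, 78.2 and 107 CPM in ISO against 63.7, 59.7 and 64.6 CPM in Lip+ISO and 57.4, 56.4 and 69.6 CPM in Lip. All Lip+ISO libraries were below all ISO libraries, and the log2 fold change was -0.54 ± 0.13 (edgeR adjusted p = 0.0202). Its response to ISO with inhibitors was 0.04 ± 0.13 on the log2 scale, and the test of the difference of responses did not pass (-0.40 ± 0.18, edgeR adjusted p = 0.363). Kdm4c (-0.55 ± 0.12) and Setd5 (-0.38 ± 0.09) also fell between ISO and Lip+ISO, as log2 fold changes, though ISO alone had not changed either past the test (-0.23 ± 0.12 and -0.23 ± 0.09), although Setd5 passed there with the replicate block (edgeR adjusted p = 0.00866). Their edgeR adjusted p between Lip+ISO and ISO were 0.0154 and 0.0254. In the refits Kdm6b and Setd5 missed the threshold in 6 each (both without ISO 3 and Lip+ISO 2, Kdm6b also without Lip+ISO 3 and Setd5 without Lip+ISO 1, adjusted p up to 0.1 and 0.202), and Kdm4c in 3 (without ISO 3, up to 0.178).

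Setd1b, Kmt2e and Hdac5 showed the reverse picture, low in ISO and nearer to the vehicle in Lip+ISO. Setd1b measured 33.4, 34.9 and 44.8 CPM in Lip+ISO, between its ISO and Lip libraries (54.1, 50.3 and 66.5 CPM in Lip). Kmt2e measured 66.3, 69.6 and 77.7 CPM in Lip+ISO and 80.5, 78.1 and 80.3 CPM in Lip. Hdac5 measured 106, 104 and 116 CPM in Lip+ISO and 114, 108 and 110 CPM in Lip, which overlapped. Against ISO the log2 fold changes were 0.76 ± 0.17, 0.44 ± 0.08 and 0.40 ± 0.08, with edgeR adjusted p of 0.0167, 0.00532 and 0.00606. The tests of the difference of responses gave 0.69 ± 0.24, 0.43 ± 0.12 and 0.29 ± 0.11 on the log2 scale and did not pass by edgeR without the block (adjusted p = 0.219, 0.098 and 0.259). DESeq2 gave adjusted p of 0.0957, 0.023 and 0.137, so Kmt2e passed by that tool. With the replicate block edgeR gave adjusted p of 0.00399, 0.0274 and 0.119, so Setd1b and Kmt2e passed and Hdac5 did not. Setd1b missed the threshold against ISO in 5 refits (without ISO 1 or 2 and Lip+ISO 3, up to 0.145), and Kmt2e, Hdac5 and Hdac4 only where a replicate number was left out of every group. The plot by library shows these members together.

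**Figure D3:**
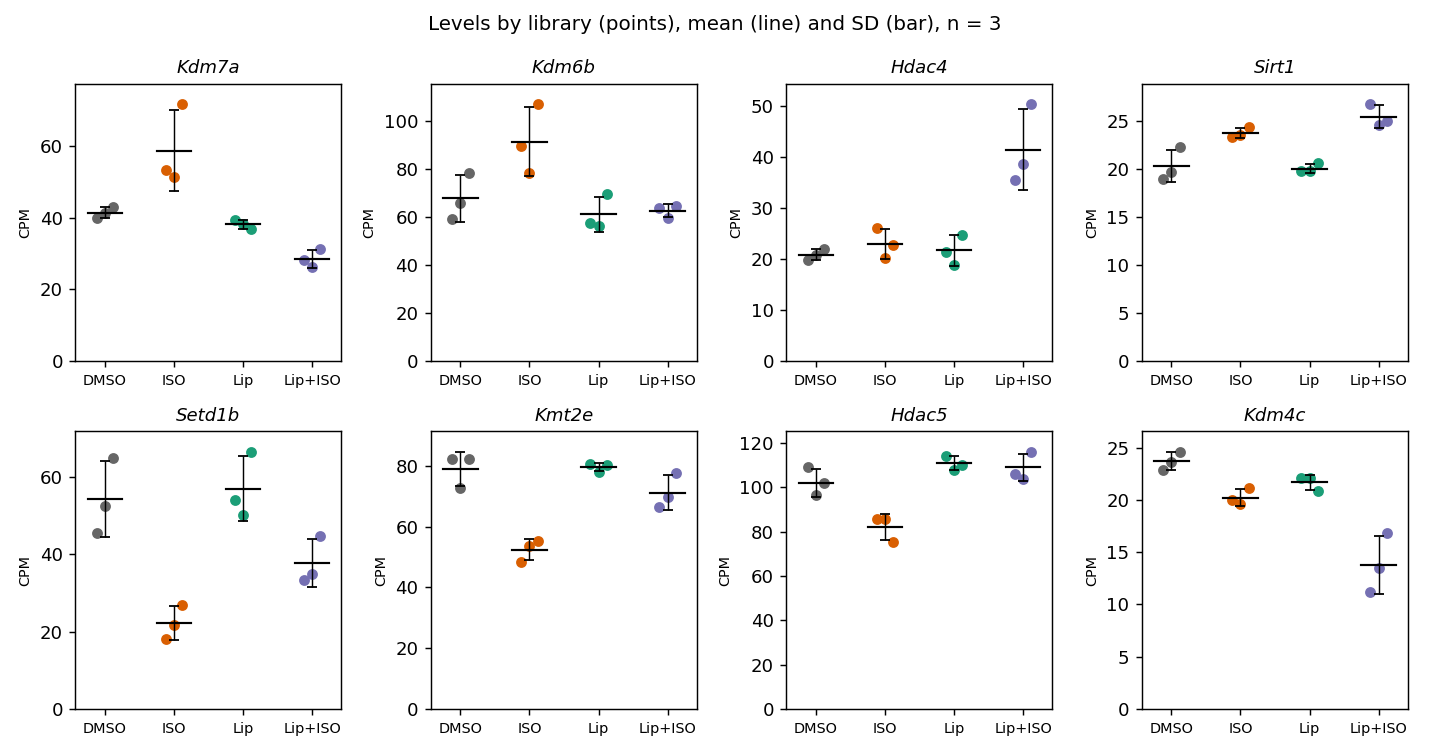
CPM of 8 enzymes in each library (points) of the 4 groups, with the mean (line) and SD (bar) of 3 libraries, on axes from 0. Kdm7a is highest in ISO and lowest in Lip+ISO (means 58.6 and 28.5 CPM), Hdac4 is highest in Lip+ISO (mean 41.5 CPM), and Setd1b is lowest in ISO (mean 22.3 CPM).

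The promoters of Kdm7a, the gene with the largest change between ISO and Lip+ISO, and of Hdac4 and Sirt1, the 2 members higher in Lip+ISO than in Lip, are shown for their sequence, with the cAMP response element half-site TGACG searched on both strands (as TGACG or CGTCA) and put in capitals. Windows run from 250 bases before to 50 after the RefSeq start (GRCm38.p6, 5′ to 3′ on the gene's strand), and 44 of the 57 members had one. Kdm7a is at chr6:39206724-39207023, Hdac4 at chr1:92180292-92180591 and Sirt1 at chr10:63338986-63339285, all on the minus strand.
Kdm7a: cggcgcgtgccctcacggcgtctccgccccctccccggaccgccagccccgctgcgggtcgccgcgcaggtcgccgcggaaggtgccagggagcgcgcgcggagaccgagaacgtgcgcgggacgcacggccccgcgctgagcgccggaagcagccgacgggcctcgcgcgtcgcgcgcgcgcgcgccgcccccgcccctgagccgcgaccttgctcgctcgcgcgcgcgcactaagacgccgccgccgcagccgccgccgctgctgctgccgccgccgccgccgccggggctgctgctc
Hdac4: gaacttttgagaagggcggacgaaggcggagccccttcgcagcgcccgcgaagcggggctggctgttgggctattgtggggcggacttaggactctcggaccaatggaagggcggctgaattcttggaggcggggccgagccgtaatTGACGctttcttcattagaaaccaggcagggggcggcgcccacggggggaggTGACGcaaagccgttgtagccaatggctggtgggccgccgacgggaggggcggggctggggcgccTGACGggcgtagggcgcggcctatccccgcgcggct
Sirt1: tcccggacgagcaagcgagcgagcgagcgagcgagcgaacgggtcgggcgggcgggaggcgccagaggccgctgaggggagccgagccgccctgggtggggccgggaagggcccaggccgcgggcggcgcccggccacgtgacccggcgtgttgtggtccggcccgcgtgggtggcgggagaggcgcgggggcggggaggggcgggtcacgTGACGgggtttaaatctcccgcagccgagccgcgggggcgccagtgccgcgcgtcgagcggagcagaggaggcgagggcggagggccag
The Hdac4 window held 3 half-sites, the Sirt1 window 1 and the Kdm7a window 0. A half-site was found in 16 of the 44 members and in 19 of their 61 windows (31.1%), against 20.8% of all 32851 windows. The full element TGACGTCA was in 0 of the 61 windows and in 1.79% of all. Of the members with a window, the half-site was in 2 of 2 higher, 6 of 14 lower and 8 of 28 not called in Lip+ISO against Lip. The 2 higher ones are Hdac4 and Sirt1, which are shown because they rose. In ISO against DMSO the half-site was in 0 of 2 higher, 4 of 9 lower and 12 of 33 not called. The window of Hdac5, which fell in ISO and is not shown, held 2 half-sites. Whether the site goes with a change in level was not tested. These are matches of letters and say nothing on binding.

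Genes that work with these enzymes were counted by list, each written from general knowledge. In ISO against DMSO 12.3% of all tested genes were higher and 13.9% lower, and each list count is to be read against these shares. In ISO against DMSO, 0 of 11 other acetyltransferases were higher and 3 lower by edgeR (1 higher at an unadjusted p under 0.05, 0 by DESeq2), with Ncoa2, a steroid receptor coactivator, at -0.74 ± 0.13 on the log2 scale (edgeR adjusted p = 0.0015). Of the best known members, named after their values were seen, Ep300 had a log2 fold change of -0.29 ± 0.11 and Crebbp one of 0.25 ± 0.12, with edgeR adjusted p of 0.0684 and 0.125 (0.0031 and 0.00487 with the replicate block). Of 29 other methyltransferases 3 were higher and 6 lower, among them the H3K79 methyltransferase Dot1l (1.33 ± 0.12) and the Polycomb enzyme Ezh1 (-0.74 ± 0.10), with edgeR adjusted p of 5.7e-06 and 0.00015. Of 8 other demethylases and JmjC relatives 1 was higher and 3 lower. Jarid2, a JmjC protein of Polycomb complexes without demethylase activity, rose by 1.33 ± 0.11, and Phf8, an H3K9 demethylase, fell by 1.06 ± 0.11 on the log2 scale (edgeR adjusted p = 3.6e-06 and 1.9e-05).

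Of 26 genes of corepressor and deacetylase complexes 3 were higher and 4 lower, against the same 12.3% and 13.9% of all tested genes. Ncor1, a corepressor that binds HDAC3 and was named after its values were seen, had a log2 fold change of -0.42 ± 0.08 (edgeR adjusted p = 0.00143). Among 17 COMPASS and Polycomb subunits 2 were higher and 2 lower, the latter Men1 (-0.66 ± 0.13) and Ncoa6 (-0.68 ± 0.11), which serve MLL complexes. Of 18 acetyl-lysine readers 2 were higher and 6 lower, with the bromodomain protein Brd2 at 1.11 ± 0.11 (edgeR adjusted p = 1.1e-05). For cofactor supply 3 of 22 genes were higher and 2 lower. The higher ones were Mat2a, which makes S-adenosylmethionine (1.42 ± 0.14), Nnmt, which uses it to methylate nicotinamide (1.09 ± 0.11), and the NAD-synthesis gene Nmnat2 (2.24 ± 0.40, at CPM of 0.666 to 6.66 in DMSO and ISO), all log2 fold changes with edgeR adjusted p of 1.1e-05, 1.5e-05 and 0.00128. The medians of the log2 fold changes were -0.19, -0.18, -0.03, 0.05, -0.09, -0.10 and -0.08 for these 7 lists in the order given, against 0.00 for all tested genes.

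In Lip+ISO against Lip 11.5% of all tested genes were higher and 15.8% lower. There edgeR called 2 of 11 other acetyltransferases higher and 2 lower, 3 and 10 of 29 other methyltransferases, and 1 and 3 of 8 other demethylases. It called 3 and 5 of 26 corepressor genes, 3 and 5 of 17 COMPASS and Polycomb genes, 4 and 6 of 18 readers, and 5 and 2 of 22 cofactor genes. The medians in the same order were -0.09, -0.22, -0.19, -0.10, -0.10, -0.19 and 0.01 on the log2 scale. In Lip+ISO against ISO 1 of the 8 other demethylases and relatives was higher and 3 were lower, against 4.36% and 4.59% of all tested genes. Of the 17 COMPASS and Polycomb subunits edgeR and DESeq2 called 0 in either direction. At an unadjusted p under 0.05, 2 were lower, against 23.8% of all tested genes in either direction. The plot of shares by list shows all 3 comparisons.

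With inhibitors the rises of 4 of these genes were larger, by a test of the difference of responses (0.901% of all tested genes were higher there). Jarid2 went from 28.7, 32.5 and 29.7 CPM in Lip to 143, 124 and 156 CPM in Lip+ISO, while ISO alone gave 80.5, 65.6 and 84.7 CPM. Brd2 went from 427, 401 and 459 CPM to 1480, 1330 and 1750 CPM, and Nnmt from 152, 154 and 138 CPM to 515, 552 and 691 CPM. For all 3 each Lip+ISO library was above each ISO library, and the differences of responses were 0.88 ± 0.16, 0.71 ± 0.15 and 0.90 ± 0.15 on the log2 scale (edgeR adjusted p = 0.0132, 0.0338 and 0.0106). In the 15 refits the difference for Jarid2 and Nnmt missed the threshold only where a replicate number was left out of every group, while that for Brd2 missed it in 11 (among them those without any 1 DMSO library, ISO 2 or 3, Lip 1 or 2, or Lip+ISO 3, adjusted p up to 0.307). The fourth, Whsc1l1 (NSD3, an H3K36 methyltransferase), is named after its values were seen, like Mat2b, a regulatory subunit of the Mat2a enzyme. Whsc1l1 had a difference of 0.62 ± 0.13 on the log2 scale (edgeR adjusted p = 0.0313), which missed the threshold in 12 refits (kept without ISO 1, Lip 3 or Lip+ISO 1, otherwise up to 0.409). Mat2b fell with ISO alone (-0.31 ± 0.09) and rose with ISO and inhibitors (0.54 ± 0.09), a difference of responses of 0.85 ± 0.12 on the log2 scale (edgeR adjusted p = 0.00387). That difference missed the threshold in 2 refits (adjusted p up to 0.15).

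**Figure D4:**
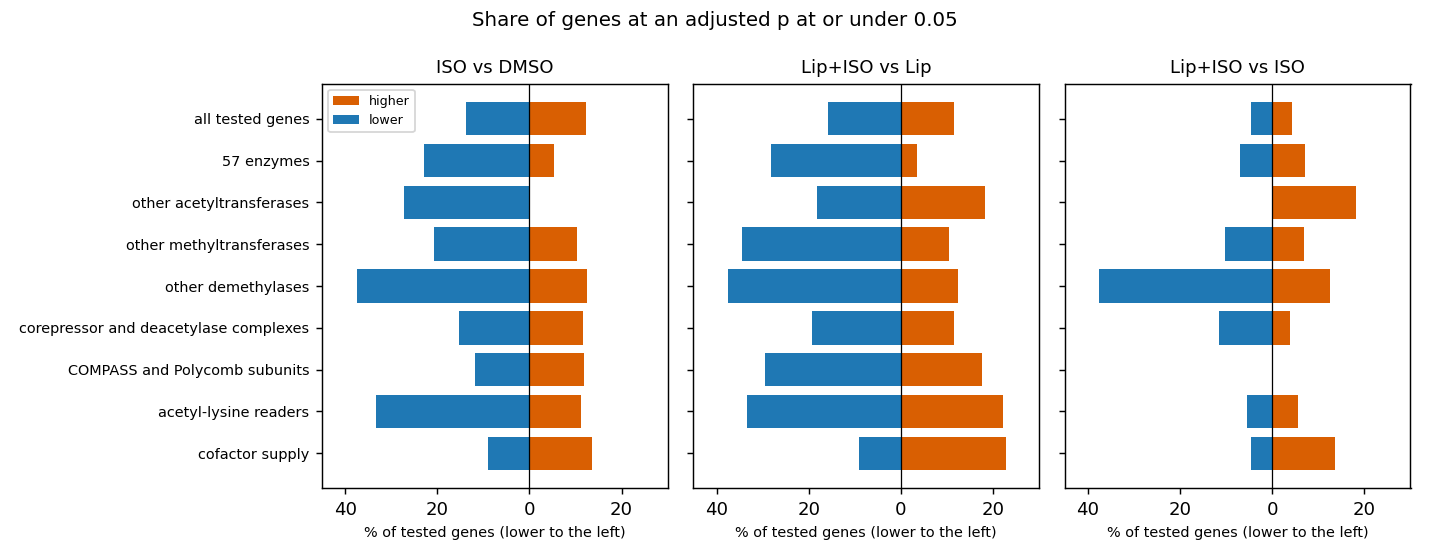
Percent of the tested genes of each list called higher (right) or lower (left) by edgeR at an adjusted p of at most 0.05, in ISO against DMSO, Lip+ISO against Lip and Lip+ISO against ISO. The top bar gives all 13543 tested genes and the second the 57 enzymes, of which 3 were higher and 13 lower in the first comparison.

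Gene length moved with the fall. The 57 members had a median counted length of 4474 bp, and all tested genes one of 2808 bp. In ISO against DMSO the median log2 fold change was -0.34 over the 24 members of at least 5000 bp and -0.14 over the 33 shorter ones, and -0.07 and 0.01 over all genes of those lengths. This split was chosen after the data had been seen, and the part of length in the result was not tested. The reverse order held in Lip+ISO against Lip for members (-0.06 and -0.17). Only 2 of the 33 older symbols of these families were in the table, and these 2 were not counted as members.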

How the data were processed

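RNA-seq was deposited for 12 libraries of floated white adipocytes in gel culture, 3 per group. The authors aligned reads to mm9 with STAR 2.4.2a, used HOMER, keeping 1 read per position and length, and counted reads per gene with iRNA-seq, and the deposited values are those raw counts with each gene's counted length. The strand setting is not given in the sources used here. The members and lists were chosen with earlier results of these data known. Genes with too few counts were removed with filterByExpr, libraries were scaled by TMM, and 1 mean per group was fitted over all 12 libraries with edgeR 4.0.16 (R 4.3.3) by the quasi-likelihood F-test, with p adjusted by Benjamini-Hochberg over 13543 genes. A call is an adjusted p of at most 0.05, and the SE is the log2 fold change divided by the root of F. The 4 comparisons are ISO against DMSO, Lip+ISO against Lip, Lip against DMSO and Lip+ISO against ISO, plus the interaction (the difference of the 2 ISO responses). Named members are those called with the largest changes in each comparison, plus 11 enzymes named whatever their values, and for each other list the 3 called genes with the largest change in ISO against DMSO. Exceptions are marked, and 1 gene the rule names is not reported here. DESeq2 1.42.0, RLE scaling, library totals, other filters, the 2 groups alone, a replicate block and left-out libraries were alternatives. The fit was tested on simulated data. Replicate numbers deviated together in every pair of DMSO with ISO and of Lip with Lip+ISO, so blocked counts and values stand beside the results of members they change there. Library totals of 22632220 to 43707557 counts set the precision of low genes.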

Additional observations from a re-analysis of the deposited data

Results flagged for a closer look

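For 6 of the genes named, the ISO response changed when the lipases were inhibited, by the edgeR test of the difference of responses. Of all tested genes 0.901% were higher and 0.724% lower in that test. Mat2b and Whsc1l1, 2 of the 6, were named after their values were seen, so the count is not a share of genes named beforehand. For Kdm7a the response with inhibitors minus that without was -0.92 on the log2 scale (edgeR adjusted p = 0.0152). Jarid2 differed by 0.88, Nnmt by 0.90 and Mat2b by 0.85 on the log2 scale, each with the larger value in cells with inhibitors. Brd2 differed by 0.71 and Whsc1l1 by 0.62 on the same scale, and these differences missed the threshold in 11 and 12 of 15 refits with libraries left out. The differences for Kdm7a, Nnmt and Mat2b missed it in 2 refits each and that for Jarid2 in 3.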

How the results depend on the processing

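The number of members called stayed within 1.5 times that reported except as follows. Requiring a log2 fold change of at least 1 left 0 higher and 1 lower in each of ISO against DMSO, Lip+ISO against Lip and Lip+ISO against ISO, and 0 lower in the interaction. Library totals alone left 1 higher in Lip+ISO against Lip (Hdac4), and moved the median log2 fold change of all tested genes to -0.12 there and that of the members to -0.27. DESeq2 called 7 higher in Lip+ISO against ISO and 2 higher in the interaction, and the 2 groups alone gave 2 lower in Lip+ISO against ISO. Same-numbered libraries of different groups deviated together at a correlation over 0.1 in 17 of 18 pairs (lowest 0.037, between ISO 3 and Lip+ISO 3), and those with different numbers at no more than 0.085. Because of that 1 pair the main fit took no account of the numbers, though libraries with different numbers never reached 0.1. The counts of calls depend on this choice. Each of the 3 pairs of DMSO and ISO (0.298, 0.331 and 0.139) and of Lip and Lip+ISO (0.192, 0.298 and 0.232) was over 0.1. That reading by comparison was made after the calls were known. With a replicate block, 4 members were higher and 19 lower in ISO against DMSO, and 3 and 19 in Lip+ISO against Lip. The counts were 9 and 6 in Lip+ISO against ISO, and 3 and 2 in the interaction. All calls of the fit without the block were kept. Shares of all tested genes called with the block or by DESeq2 were not counted, so these counts have no background beside them. Differences of responses that passed only with the block or DESeq2 were those of Hdac4 (edgeR adjusted p = 0.0169 with the block), Kmt2e (0.0274), Setd1b (0.00399, block only) and Hdac7 (0.0383, block only). Leaving out libraries gave 1 to 3 higher and 5 to 15 lower in ISO against DMSO, 1 to 3 and 6 to 18 in Lip+ISO against Lip, 0 to 7 and 1 to 5 in Lip+ISO against ISO, and 0 to 1 and 0 to 1 in the interaction. The lowest counts of lower calls came without replicate 2 of every group (5 and 6), except in Lip+ISO against ISO, where it and replicate 1 each left 1. Direction changed only for pairs that did not pass the test, all near 0 or variable. Under library totals the log2 fold change was -0.08 for Kdm3a, -0.08 for Kdm6b and -0.09 for Kmt2d in Lip+ISO against Lip, 0.02 for Sirt1 and 0 for Kdm1a in Lip against DMSO, -0.03 for Kat2b in Lip+ISO against ISO, and -0.06 for Hdac3 in the interaction. Under both RLE scaling and DESeq2 it was 0.01 for Kat2b in the interaction and 0 for Hdac5 in Lip+ISO against Lip. With libraries left out, the log2 fold change in ISO against DMSO ran from 0 to 0.22 for Hdac4, -0.18 to 0.02 for Kdm1a and -0.04 to 0.15 for Kdm3a. In Lip+ISO against Lip it ran from -0.26 to 0.95 for Hdac9, -0.13 to 0.15 for Kdm3a, -0.03 to 0.14 for Kdm6b, -0.19 to 0.32 for Kmt2d and -0.08 to 0.02 for Hdac5. In Lip against DMSO it ran from -0.06 to 0.15 for Hdac4, -0.06 to 0.05 for Sirt1, -0.02 to 0.05 for Kat2b, -0.12 to 0.08 for Kdm1a, -0.38 to 0.17 for Kmt2d and -0.06 to 0.22 for Setd1b. In Lip+ISO against ISO it ran from -0.16 to 0.10 for Hdac3, -0.20 to 0.25 for Hdac9, -0.48 to 0.15 for Sirt3, -0.02 to 0.07 for Kat2b and -0.27 to 0.02 for Kdm3a. In the interaction it ran from -0.09 to 0.14 for Hdac3, -0.62 to 0.13 for Sirt3, -0.05 to 0.05 for Kat2b, -0.20 to 0.08 for Kdm3a and -0.05 to 0.21 for Setd7. The cause was not tested. With 3 libraries per group and a biological coefficient of variation of 0.163, the SE of low genes was large, as for Hdac9 (0.38 on the log2 scale in ISO against DMSO), so depth limits what can be said of them.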
